A study of Mus musculus with 48 samples.

Results

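The cells described here are the Tac2 or Kiss1 neurons of the mouse hypothalamus at E18.5, late in gestation. A cell was counted as one if it held at least 1 unique molecular identifier (UMI, the tag that marks 1 captured RNA molecule) of Tac2 or Kiss1 and at least 1 UMI of 3 or more of 6 neuronal genes, Stmn2, Tubb3, Snap25, Syt1, Elavl4 and Rbfox3. Of 14121 cells, 11122 were neurons by the same 6 genes, and 241 of those were Tac2 or Kiss1 neurons, 147 from control and 94 from Eed-cKO embryos. They were then split by Pax6, with at least 1 UMI counted as positive, into 29 Pax6-positive and 212 Pax6-negative cells. The levels of Tac2, Kiss1, Pax6 and the 6 neuronal genes therefore chose the cells, and their levels within these cells are given only as a description. What was compared between genotypes is the share of cells in each embryo and the level of these genes over all neurons.

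Control embryos were Eed fl/fl, and Eed-cKO embryos were Eed fl/fl; Sox1-Cre/+, so that both groups carried 2 floxed alleles of Eed and only the mutants carried Cre. Cre was driven from the locus of Sox1, a gene of neural progenitors from forebrain to spinal cord, so Eed was targeted in every neural lineage and not in these neurons alone. The dissected hypothalami were cut into pieces before dissociation, and embryo and library were read from the sample titles, which do not spell out that a library is 1 piece. The 22 control libraries came from 6 embryos (2 female, 4 male) of 4 litters, and the 26 Eed-cKO libraries from 9 embryos (5 female, 4 male) of 6 litters. No litter held both genotypes, so litter and genotype cannot be told apart. The embryo was the replicate throughout.

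Tac2 encodes the precursor of neurokinin B, a tachykinin, and Kiss1 encodes the precursor of kisspeptin. In the adult arcuate nucleus both are made by the same neurons together with dynorphin, the product of Pdyn, and these neurons drive the pulses of gonadotropin-releasing hormone that pubertal onset and fertility depend on. Many other neurons make neurokinin B without kisspeptin. Pax6 is a paired-homeodomain transcription factor that patterns the forebrain and marks several neuronal groups, among them cells of the prethalamus and its border with the hypothalamus. Eed is a core subunit of Polycomb repressive complex 2 (PRC2), which methylates lysine 27 of histone H3 and keeps developmental genes silent outside their proper region. In mm10 (GRCm38), Tac2 lies on the plus strand of chromosome 10 from 127724478 to 127731768, Kiss1 on the plus strand of chromosome 1 from 133321875 to 133329901, and Pax6 on the plus strand of chromosome 2 from 105668900 to 105697364. Exons of Kiss1 overlap those of Golt1a and Gm28040 on the same strand, so reads of these genes may not have been separated.

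Library depth ran from 576432 to 4513505 UMIs. The median depth of a Tac2 or Kiss1 neuron was 5210 UMIs in control and 5433.5 UMIs in mutant embryos, and that of the other neurons was 5209 and 4835.5 UMIs. One control library, from embryo F4650_E2, held 1207 cells against at most 465 in any other, and with them 19 of the Tac2 or Kiss1 neurons and all 3 Pax6-positive ones of that embryo. Of 14019 barcodes, 101 occurred in more than 1 library, and 4 of the neurons described here carried such a barcode, none of them shared by a pair of these neurons. The targeted gene, Eed, had 26.7 to 32.4 CPM (counts scaled to a common depth) in the summed neurons of control embryos and 17.7 to 28.1 CPM in those of Eed-cKO embryos, a log2 difference of -0.43 ± 0.10 (SE; edgeR adjusted p = 0.0047) with overlapping groups. Reads were counted at the 3' end of the transcript, and whether the deleted exons lay in the counted part was not given in the sources used here. Within the Tac2 or Kiss1 neurons, 31 control and 11 mutant UMIs of Eed were counted.

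The control cells fell into 3 kinds by the genes of the rule. Pax6-positive cells numbered 26, and 25 of them held Tac2 and 1 held Kiss1. Kiss1-positive cells without Pax6 numbered 52. Cells with Tac2 alone, without Kiss1 or Pax6, numbered 69. In Eed-cKO embryos the same kinds held 3, 57 and 34 cells. Many of the cells rested on little RNA, since 72 of the 147 cells of control embryos (48.98%) and 59 of the 94 cells of Eed-cKO embryos (62.8%) held exactly 1 UMI of Tac2 and Kiss1 together. At the neuronal threshold, 16 control and 6 Eed-cKO cells had exactly 3 of the 6 neuronal genes, and 3 control and 2 Eed-cKO cells with Tac2 or Kiss1 had 2 and were left out. Vascular, meningeal and microglial cells, which should lack both neuropeptides, held no UMI of either gene in 286 control and 479 Eed-cKO cells, which allows a share of up to 1.05% and 0.626% of such cells. Their median depth was 3585.5 and 3646 UMIs. Limits and intervals cover counting error only.

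The 3 kinds carried different amounts of the peptide genes. In the Pax6-positive control cells, Tac2 had 135 UMIs, a median of 4 and at most 17 per cell, and Kiss1 had 1 UMI in all. The 52 Kiss1-positive control cells held 175 Kiss1 UMIs, at most 21 in a cell, and 189 Tac2 UMIs in 18 of the cells, of which 1 cell alone held 115. The 57 Kiss1-positive Eed-cKO cells held 368 Kiss1 UMIs, with at most 42 in a cell, and 300 Tac2 UMIs in 23 of the cells. Coexpression of Tac2 and Kiss1 was thus seen in both genotypes, in 18 cells of control and 23 of mutant embryos. Cells with Tac2 alone held 186 Tac2 UMIs in control (at most 23 in a cell) and 50 in Eed-cKO embryos (at most 6). The 3 Pax6-positive Eed-cKO cells held 1 Tac2 UMI each and 5 Pax6 UMIs in all.

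**Figure D1:**
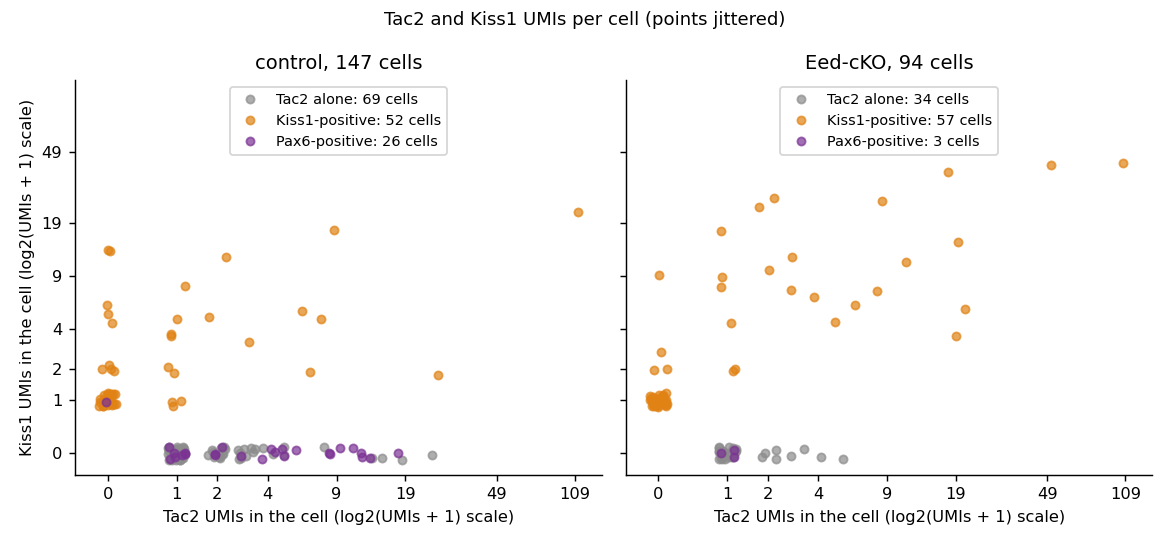
Tac2 UMIs (horizontal axis) and Kiss1 UMIs (vertical axis) in each of the 147 control and 94 Eed-cKO cells, both on a log2(UMIs + 1) scale with points jittered, coloured by kind. Pax6-positive cells (purple) lie along the Tac2 axis in control, up to 17 UMIs, and only 3 of them, with 1 Tac2 UMI each, are seen in Eed-cKO embryos.

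Fewer neurons carried Tac2 or Kiss1 together with Pax6 in Eed-cKO embryos. The control embryos F4520_E2, F4650_E1, F4530_E2, F4650_E2, F4520_E4 and F4690_E3 had 8, 6, 5, 3, 2 and 2 Pax6-positive cells, or 0.881%, 0.758%, 0.536%, 0.219%, 0.200% and 0.224% of their neurons. Of the 9 Eed-cKO embryos, 6 had none, and F502_E6, F0582_E7 and F0588_E7 had 1 cell each, or 0.260%, 0.174% and 0.142%. All 6 control embryos thus held such cells, but the groups overlapped at their edges. The means were 0.470% ± 0.301 (SD, n = 6) and 0.0640% ± 0.101 (SD, n = 9), a difference of -0.406 percentage points (exact two-sided permutation test over embryos, p = 0.0024, Benjamini-Hochberg adjusted over 11 share comparisons p = 0.0264). The call was lost without embryo F4650_E1 (-0.348, adjusted p = 0.0570) and without the largest library (-0.369, adjusted p = 0.0557). It was also lost with litters as samples and with each cell thinned to a common number of UMIs. In both of these settings, none of the share calls given below held either. The study had already singled out Tac2 cells with Pax6 in these same embryos, so these counts are no independent evidence of a direction.

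Pax6 was less frequent among the Tac2 or Kiss1 neurons of the mutants, while the difference among the remaining neurons was smaller and did not pass the test. Of the neurons described here, 18.47% ± 11.2 (SD, n = 6) were Pax6-positive in control and 4.43% ± 7.42 (SD, n = 8) in Eed-cKO embryos, with ranges of 7.69% to 35.3% and 0% to 20% (exact permutation test, p = 0.0240, adjusted p = 0.0440). The Eed-cKO embryo F0582_E2, with 151 neurons and none of these cells, could not enter this comparison. Of the other neurons, 4.10% ± 1.03 (n = 6) and 3.49% ± 1.82 (n = 9) held Pax6 (exact permutation test, p = 0.479, adjusted p = 0.527). With at least 2 Pax6 UMIs asked, however, the other neurons differed by -1.44 percentage points (adjusted p = 0.0264). Vascular, meningeal and microglial cells held Pax6 in 0.699% and 2.71% of cells. Tested directly, the excess of Pax6-positive cells over other neurons of the same embryo was 14.4 ± 10.6 percentage points in control and 0.833 ± 6.23 in Eed-cKO embryos (n = 6 and 8, exact permutation test, p = 0.0120, adjusted p = 0.0264). This last call was lost without F4520_E2 (adjusted p = 0.0615), F4530_E2 (0.0581) or F4650_E1 (0.0637), with differences of -12.1, -13.1 and -10.2. For the share of the neurons described here, the adjusted p rose above 0.05 without any 1 of 9 embryos, with differences between -14.0 and -10.7: it was 0.103, 0.0969 and 0.0879 without F4520_E2, F4530_E2 and F4650_E1, 0.0617 without F0571_E3, 0.0586 without F0588_E7, 0.0684 without F0589_E1, F0652_E5 or F0652_E8, and 0.0607 without F502_E9.

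Kiss1-positive neurons were 0.884% ± 0.389 (SD, n = 6) of control and 0.974% ± 0.524 (SD, n = 9) of Eed-cKO neurons, 53 and 57 cells (exact permutation test, p = 0.727, also after adjustment). Cells with Tac2 alone, 69 and 34 in number, were 1.19% ± 0.295 (SD, n = 6) of control and 0.584% ± 0.428 (SD, n = 9) of Eed-cKO neurons, ranging from 0.948% to 1.68% and from 0% to 1.28%, a difference of -0.603 percentage points that was given no test of its own. Pax6-negative cells of both peptides together were 2.06% ± 0.458 and 1.56% ± 0.915 (n = 6 and 9, exact permutation test, p = 0.239, adjusted p = 0.292). All Tac2 or Kiss1 neurons were 2.53% ± 0.487 and 1.62% ± 0.929, ranging from 2.04% to 3.30% and from 0% to 3.27% (n = 6 and 9, exact permutation test, p = 0.0456, adjusted p = 0.0716). Without F0588_E7, the Eed-cKO embryo with the highest share, that difference was -1.11 with an adjusted p of 0.0244. Neurons with at least 3 Tac2 UMIs were 0.713% ± 0.265 in control and 0.287% ± 0.271 in Eed-cKO embryos (n = 6 and 9, exact permutation test, p = 0.0120, adjusted p = 0.0264), a call that was lost without F4520_E2 (-0.393, adjusted p = 0.0615), F4650_E1 (-0.367, adjusted p = 0.0637) or the largest library (-0.365, adjusted p = 0.0900). Of these high-Tac2 cells, 15 of 40 held Pax6 and 7 of 40 Kiss1 in control, against 0 of 18 and 14 of 18 in Eed-cKO embryos. A fall in the number of cells and a fall in the RNA of each cell below 1 captured UMI cannot be told apart here.

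**Figure D2:**
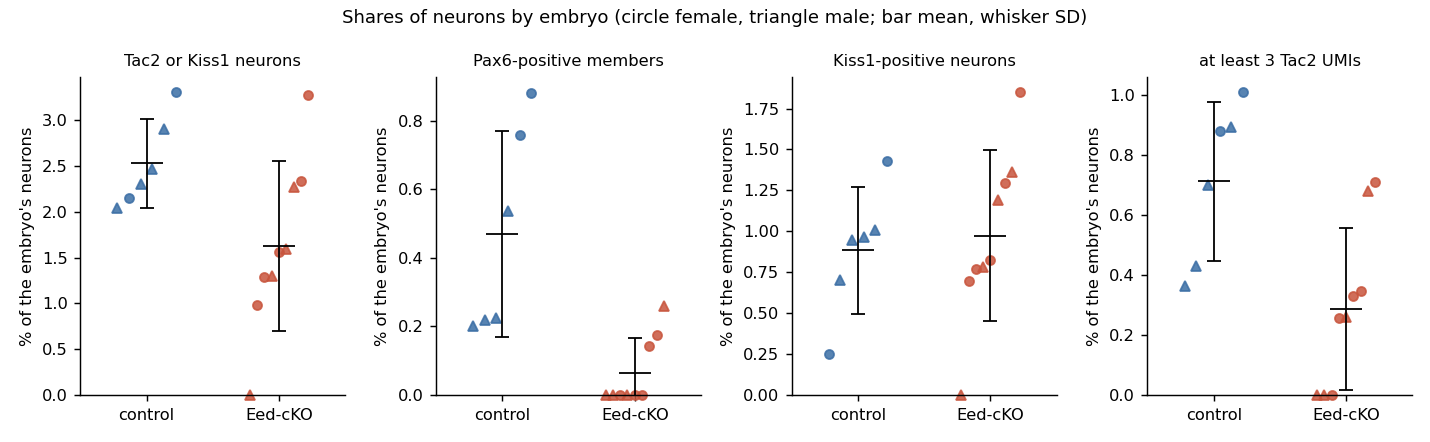
Share of each embryo's neurons (percent, vertical axis) that were Tac2 or Kiss1 neurons, Pax6-positive ones, Kiss1-positive neurons, and neurons with at least 3 Tac2 UMIs, for 6 control and 9 Eed-cKO embryos (circles female, triangles male, bar mean, whiskers SD). The Pax6-positive share is above 0 in all 6 control and in 3 of 9 Eed-cKO embryos, and the Kiss1-positive shares overlap widely.

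Among the control embryos, both females had the highest Pax6-positive shares, 0.881% and 0.758%, against 0.200% to 0.536% in the 4 males. Within females, the 5 Eed-cKO embryos had 0% to 0.174%, and within males, the 4 Eed-cKO embryos had 0% to 0.260%. The direction was therefore the same within each sex, with no overlap among females and an overlap among males. The number of cells moved with how they were asked for but the control count stayed the larger: 18 and 0 Pax6-positive cells held at least 2 UMIs of Tac2 and Kiss1, 18 and 1 held at least 2 UMIs of Pax6, and 12 and 1 were left after each cell was thinned to 2000 UMIs. These counts pool cells over embryos. Tested over embryos, the Pax6-positive share of neurons passed in the first 2 settings but not after thinning. The Pax6 share of the Tac2 or Kiss1 neurons and its excess over other neurons passed in none of the settings.

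In the sum over all neurons, where no cell was chosen by the peptides, Kiss1 RNA passed the test as higher in Eed-cKO embryos, with a log2 difference of 1.34 ± 0.41 (SE; edgeR quasi-likelihood test, adjusted p = 0.031). The study itself reported no upregulation of Kiss1 or Tac2. It summed cells by sample rather than by embryo, over differently chosen cells and with another test. The level of Kiss1 here was 1.33 to 8.58 CPM in control and 0 to 25.6 CPM in Eed-cKO embryos, so the groups overlapped, and the adjusted p was above 0.05 with DESeq2 (0.0873), with sex as a term (0.0604), without likely doublets (0.0984) and without any 1 of 7 embryos. Those embryos were F0571_E3 (log2 difference 1.11), F4650_E1 (1.16), F4690_E3 (1.22), F4520_E4 (1.22), F0582_E7 (1.23), F502_E9 (1.26) and F0652_E8 (1.27). Tac2 had 9.56 to 29.2 CPM in control and 0 to 47.3 CPM in Eed-cKO embryos (log2 difference -0.23 ± 0.48, adjusted p = 0.801). The highest values of each group, 29.2 CPM in F4520_E2 and 47.3 CPM in F0582_E7, stood apart from the rest. Pax6 had 13.8 to 40.6 CPM in control and 5.44 to 34.9 CPM in Eed-cKO embryos (log2 difference -0.79 ± 0.29, adjusted p = 0.0639). It passed the threshold without F502_E6 (-0.98, adjusted p = 0.0140), F4690_E3 (-0.92, 0.0339), F4650_E2 (-0.87, 0.0380) or F4520_E4 (-0.91, 0.0403).

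The Pax6-positive control cells differed from the Pax6-negative ones in many genes the rule did not use. They expressed transcription factors of the nuclear factor I family and the zinc-finger gene Rreb1, and had no UMI of the hypothalamic homeodomain gene Nkx2-1 or the helix-loop-helix gene Nhlh2 in the sums compared. Sums of at least 5 cells of each kind could be made in 3 control embryos, F4520_E2, F4530_E2 and F4650_E1, and were compared within the embryo. Of 3119 genes tested, 35 passed an adjusted p of 0.05 (1.12%; edgeR quasi-likelihood test with the embryo as a block), 21 higher and 14 lower in the Pax6-positive cells, and 34 of them moved the same way in all 3 embryos. The count was 16 without F4650_E1, and all 16 were among the 35. In Eed-cKO embryos, with 3 such cells in 3 embryos, no such comparison could be made.

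The 8 largest rises were led by Nfib, with 1810, 2315 and 3322 CPM (scaled by trimmed mean of M values, TMM) in the Pax6-positive and 20, 31.9 and 137 CPM in the Pax6-negative sums of the same embryos, each set in ascending order. This gave 178 against 16 UMIs and a log2 difference of 5.42 ± 0.36 (edgeR adjusted p = 1.99e-08), with no overlap. Rreb1 had 440, 813 and 968 CPM against 0, 12.4 and 20 CPM, or 53 against 4 UMIs, with a log2 difference of 5.42 ± 0.59 (adjusted p = 2.02e-05). Calb2, the calcium-binding protein calretinin, had 1491, 1687 and 3788 CPM against 47.8, 60.1 and 236 CPM, a log2 difference of 4.31 ± 0.42 (adjusted p = 5.91e-06). Each of the 3 genes was therefore higher in every Pax6-positive sum than in any Pax6-negative one. Synpr, a synaptic vesicle protein, was higher by 3.51 on the log2 scale. Nfix was higher by 3.46, Lypd1 by 3.45, Nfia by 3.21 and Vstm2a by 2.996, with adjusted p between 4.5e-05 and 0.0090 for these 5 genes. Exons of Lypd1 overlap Gpr39 on the opposite strand.

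Of the 8 largest falls, 6 genes had no UMI in the Pax6-positive sums of these 3 embryos, so that only a bound can be given, set by a floor of 3 counts over the group. Nhlh2, which acts in hypothalamic peptide neurons, had 254 to 637 CPM in the Pax6-negative sums and was at least 10.5-fold lower (edgeR adjusted p = 9.79e-04). Nkx2-1, a determinant of the ventral hypothalamus, had 187 to 335 CPM and was at least 6.14-fold lower (adjusted p = 0.0134). Nrgn (at least 5.87-fold), Cacna2d1 (5.78-fold), Nwd2 (4.72-fold) and Meis2 (4.45-fold) were also at 0, with adjusted p from 0.0134 to 0.0482. Tle4, a corepressor, had 1 UMI in 1 of the 3 Pax6-positive sums, and Ap1s2 fell by 3.63 on the log2 scale (adjusted p = 0.0012). Without F4650_E1 the calls of Nkx2-1 (adjusted p = 0.103), Cacna2d1 (0.103), Meis2 (0.279), Nrgn (0.389) and Tle4 (0.0738) were lost, and that of Tle4 also without F4520_E2 (0.0605).

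Of 5 tested transmitter genes, 1, Gad2, was higher and 1, Slc17a6, was lower in the Pax6-positive control cells, and 3 did not pass the test. Gad2, which makes GABA, had 203, 673 and 734 CPM in the Pax6-positive and 159, 167 and 187 CPM in the Pax6-negative sums (log2 difference 1.71 ± 0.41, edgeR adjusted p = 0.045), although the call was lost without likely doublets (1.51, adjusted p = 0.0757). Gad1 differed by 1.22 ± 0.32 (adjusted p = 0.0789). Slc17a6, the vesicular glutamate transporter, had 3 UMIs against 102, a ratio of 0.110 (95% counting interval 0.0224 to 0.331, adjusted p = 0.018). Of 7 tested genes of a list of prethalamic and GABAergic transcription factors, Dlx1 was higher (2.57 ± 0.38, adjusted p = 7.14e-04), Meis2 and Zfhx3 were lower, and 4 did not pass the test, with a list median of -1.15 against -0.06 over all genes. The calls of Gad2 and Slc17a6 were lost without F4520_E2 (1.40 and -2.25) or F4650_E1 (1.56 and -3.23), and that of Zfhx3 without F4650_E1 (-1.76). Among 2 tested genes of a list of arcuate kisspeptin-neuron genes, Nkx2-1 was lower and the other did not pass the test.

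Over all 26 Pax6-positive control cells, Dlx1 was found in 22, Gad1 in 22, Nfib in 21, Rreb1 in 20, Calb2 in 18 and Sp8, a zinc-finger gene of GABAergic lineages, in 13. Of the 52 Kiss1-positive control cells, 12 held Dlx1, 23 Gad1, 5 Nfib, 1 Rreb1, 9 Calb2 and 5 Sp8. Some genes of arcuate kisspeptin neurons, Tbx3, Esr1, Sox14 and Pdyn, showed the reverse. They are part of a longer list, and their shares of cells were not tested between the kinds. Tbx3, an arcuate T-box gene, was found in 20 of 52 Kiss1-positive, 2 of 69 Tac2-alone and 0 of 26 Pax6-positive control cells. Esr1, the oestrogen receptor alpha gene, was found in 9, 2 and 1 of these cells, Sox14 in 14, 3 and 0, and Pdyn in 15, 11 and 0. A count of 0 of 26 cells allows a share of up to 11.5%. The Pax6-positive cells were also shallower, at a median of 3512 UMIs against 5909 in the Pax6-negative control cells, and the part of this depth in the lower shares was not tested. Tbx3, Sox14 and Esr1, genes of arcuate kisspeptin neurons, were each found in at most 1 Pax6-positive and 3 Tac2-alone control cells.

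**Figure D3:**
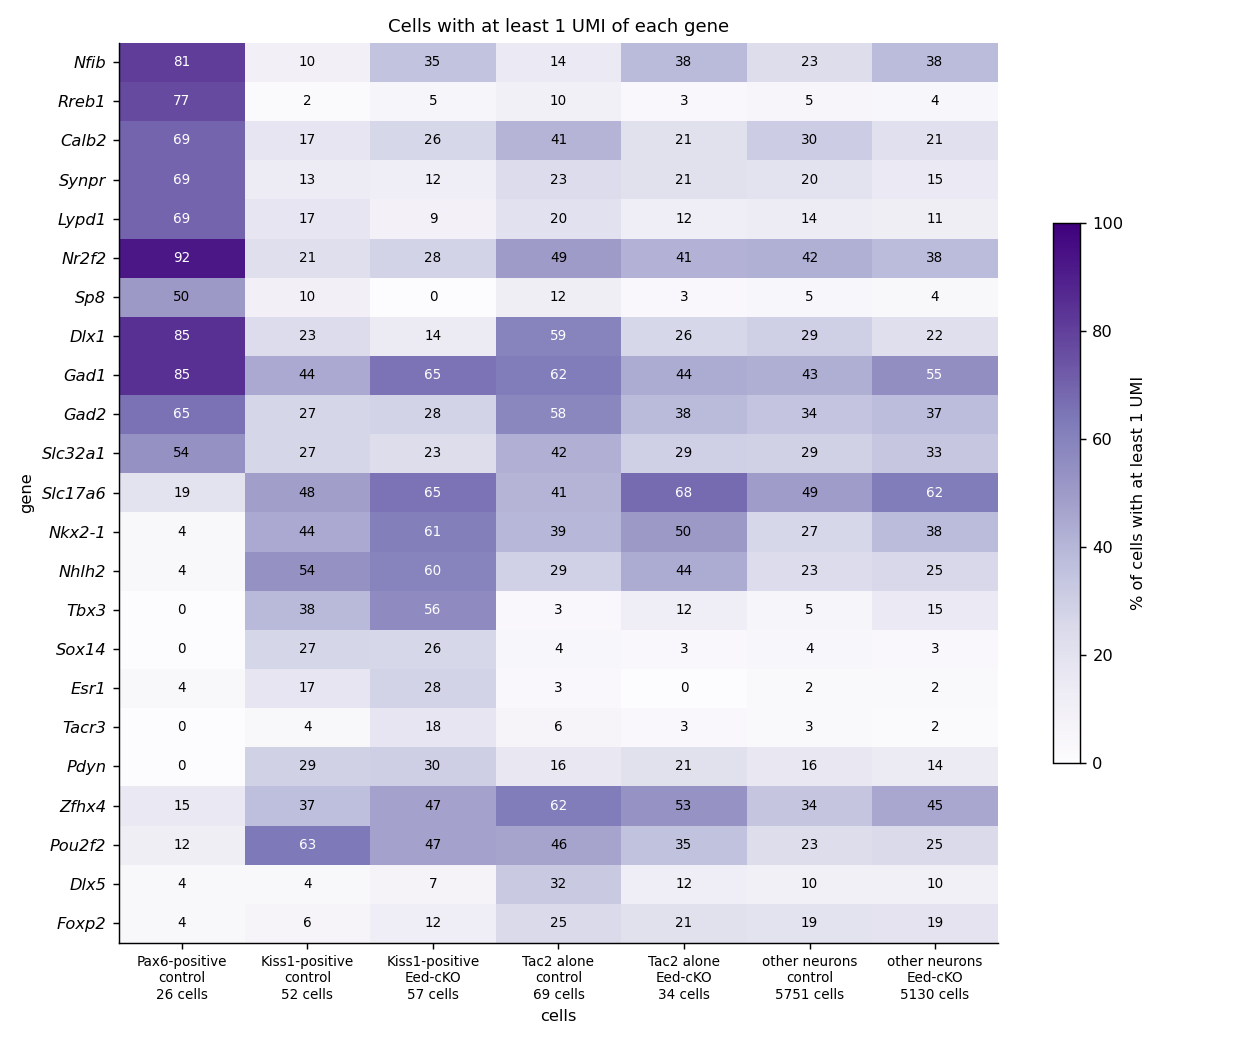
Percent of cells with at least 1 UMI of each gene (rows) in each kind of Tac2 or Kiss1 neuron and in the other neurons, by genotype (columns, with the number of cells). Pax6-positive control cells stand out in the upper rows, Nfib to Slc32a1, and Kiss1-positive cells of both genotypes in Nkx2-1, Nhlh2, Tbx3, Sox14 and Esr1. The 3 Pax6-positive Eed-cKO cells are too few to show.

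In Eed-cKO embryos the Kiss1-positive cells held the following arcuate genes as well. Tbx3 was found in 32 of 57 cells, Nkx2-1 in 35, Nhlh2 in 34, Pdyn in 17, Esr1 in 16, Sox14 in 15 and Tacr3, the neurokinin B receptor gene, in 10. In control these counts were 20, 23, 28, 15, 9, 14 and 2 of 52 cells. Sp8 was found in 0 of 57 Eed-cKO cells and Dlx1 in 8 of 57. Hmx2 and Hmx3, which mark other arcuate neurons, were found in 5 and 1 of the 57 cells and in 0 and 1 of the 52 control cells. Among cells with Tac2 alone, 41 of 69 in control and 9 of 34 in mutant embryos held Dlx1, and 8 and 1 of them held Sp8.

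Within the Tac2 or Kiss1 neurons as a whole, Dlx1, Sp8 and Meis2, of the list of prethalamic and GABAergic transcription factors, passed the test as lower in Eed-cKO embryos. The GABA-synthesis genes Gad1 and Gad2 also passed as lower, and Tbx3 as higher. The calls of Meis2, Gad1 and Gad2 rested on single embryos or on the choice of cells, as described with their values. The sums of 6 control and 8 Eed-cKO embryos were compared. The mix of Pax6-positive, Kiss1-positive and Tac2-alone cells in these sums differed between genotypes, and its part in the differences was not tested. Of 7897 genes tested, 145 passed an adjusted p of 0.05 (1.84%; edgeR quasi-likelihood test), 73 higher and 72 lower in Eed-cKO embryos, and for 30 of these the embryos of the 2 genotypes did not overlap. Of the other neurons' 14618 genes, 15.5% passed. The count moved by more than 1.5 times without F0588_E7 (60 genes), F0589_E1 (79), F4520_E4 (86), F4520_E2 (93) or F4690_E3 (95). It was 53 without 5 control and 17 Eed-cKO cells that carried at least 3 genes of another cell type, and 46 of these 53 were among the 145.

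Dlx1, a homeodomain gene of forebrain GABAergic neurons, had 309, 333, 346, 348, 408 and 478 CPM in the control embryos. In the Eed-cKO embryos it had 12.9, 30, 48.8, 61.6, 62.1, 83.0, 96.8 and 125 CPM. Every Eed-cKO embryo lay below every control embryo, and the log2 difference was -2.61 ± 0.27 (edgeR adjusted p = 4.49e-08). Among other neurons Dlx1 differed by -0.94 ± 0.09 (adjusted p = 1.88e-07). The fall was larger in the Tac2 or Kiss1 neurons, by -1.76 ± 0.28 on the log2 scale when the difference itself was tested (adjusted p = 6.38e-07). With the other neurons reduced to the same number of cells this difference was -1.73 and short of the threshold (adjusted p = 0.114). Exons of Dlx1 overlap Dlx1as on the opposite strand.

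Sp8 had 40.6 CPM at the lowest, 61.1 at the median and 105 at the highest over control embryos. It was at 0 in 7 of 8 Eed-cKO embryos and at 5.0 CPM in F0588_E7. With 60 against 1 UMIs, the ratio of Eed-cKO to control was 0.0249 (95% counting interval 0.000621 to 0.144), and the fitted log2 difference was -4.62 ± 0.66 (edgeR adjusted p = 3.38e-05). Among other neurons Sp8 differed by -0.69 ± 0.22 (adjusted p = 0.034), and the difference between the 2 kinds of neuron was -4.52 ± 1.01 (adjusted p = 0.0040). That last call was lost without likely doublets (adjusted p = 0.0549), without the cells that carried markers of other types (adjusted p = 0.0536) and with equal numbers of cells (-4.30, adjusted p = 0.337).

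Of 13 tested genes of the list of prethalamic and GABAergic transcription factors, which holds 19, 3 fell (Sp8, Dlx1 and Meis2), none rose and 10 did not pass the test, with a median log2 difference of -1.43 against -0.05 over all genes. Meis2 had 29.0, 147 and 414 CPM (lowest, median, highest) in control and 0, 17.2 and 217 CPM in Eed-cKO embryos, a log2 difference of -1.72 ± 0.48 (edgeR adjusted p = 0.048) with overlapping groups. In the other neurons it rose by 0.35 ± 0.12 (adjusted p = 0.044), and the difference between the kinds was -2.08 ± 0.30 (adjusted p = 2.99e-08), or -1.64 (adjusted p = 0.444) with equal numbers of cells. The genotype call of Meis2 was lost without any 1 of 11 embryos, with log2 differences from -2.07 to -1.28: F0571_E3, F0582_E7, F0588_E7, F0589_E1, F0652_E5, F0652_E8, F4520_E2, F4520_E4, F4650_E1, F4690_E3 and F502_E9. Elsewhere, 3 of 18 genes of this list tested in the other neurons rose and 4 fell.

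Of 7 tested transmitter genes, Gad1 and Gad2 fell and 5 did not pass the test. Gad1 had 427, 613 and 950 CPM (lowest, median, highest) in control and 152, 327 and 581 CPM in Eed-cKO embryos, a log2 difference of -0.89 ± 0.22 (edgeR adjusted p = 0.023). Gad2 had 192, 253 and 300.2 CPM against 25.7, 101 and 280 CPM, a difference of -1.22 ± 0.29 (adjusted p = 0.015). Both genes overlapped between the groups, and both calls were lost without the cells that carried markers of other types (-0.76, adjusted p = 0.0667, and -1.01, adjusted p = 0.0681). That of Gad1 was also lost without F0588_E7 (-0.77), F0589_E1 (-0.82), F4520_E4 (-0.81) or F4690_E3 (-0.71), and that of Gad2 without F0588_E7 (-1.16) or F0589_E1 (-1.05). In the other neurons Gad1 differed by 0.17 ± 0.08 (adjusted p = 0.161) and Gad2 by -0.14 ± 0.08 (adjusted p = 0.252), and the direct tests gave -1.07 ± 0.18 (adjusted p = 1.48e-06) and -1.11 ± 0.25 (adjusted p = 0.0043). With equal numbers of cells these were -1.02 and -0.95, short of the threshold (adjusted p = 0.114 and 0.913). Slc32a1, the vesicular GABA transporter, differed by -1.06 ± 0.34 (adjusted p = 0.103) and Slc17a6 by 0.14 ± 0.24 (adjusted p = 0.888).

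Of 8 tested genes of the arcuate kisspeptin-neuron list, which holds 18, Tbx3 rose and 7 did not pass the test, with a median of 0.37. The list also holds Ghrh, a gene of other arcuate neurons, so counts over it are not of kisspeptin neurons alone. Tbx3 had 12.9, 38.4 and 139 CPM (lowest, median, highest) in control and 31.1, 136 and 415 CPM in Eed-cKO embryos, a log2 difference of 1.88 ± 0.37 (edgeR adjusted p = 0.0029), and the groups overlapped. The other neurons rose too, by 1.22 ± 0.23 (adjusted p = 7.85e-04). Nkx2-1 differed by 0.39 ± 0.22 (adjusted p = 0.519), Pdyn by 0.36 ± 0.39 (0.796), Esr1 by 0.93 ± 0.54 (0.524) and Sox14 by 0.07 ± 0.46 (0.978). Tac1, the other tachykinin gene tested, differed by 1.00 ± 0.40 (adjusted p = 0.254).

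No gene of 4 further lists passed the test in these neurons: 11 tested hypothalamic transcription factors (median log2 difference 0.08), 8 PRC2 genes (-0.36), 4 cyclin-dependent kinase inhibitors (0.79) and 6 receptors for sex steroids and metabolic signals (0.03). Among 14 tested neuropeptide genes, Avp alone fell, and 1321 of its 1329 control UMIs came from 1 cell of F4530_E2.

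**Figure D4:**
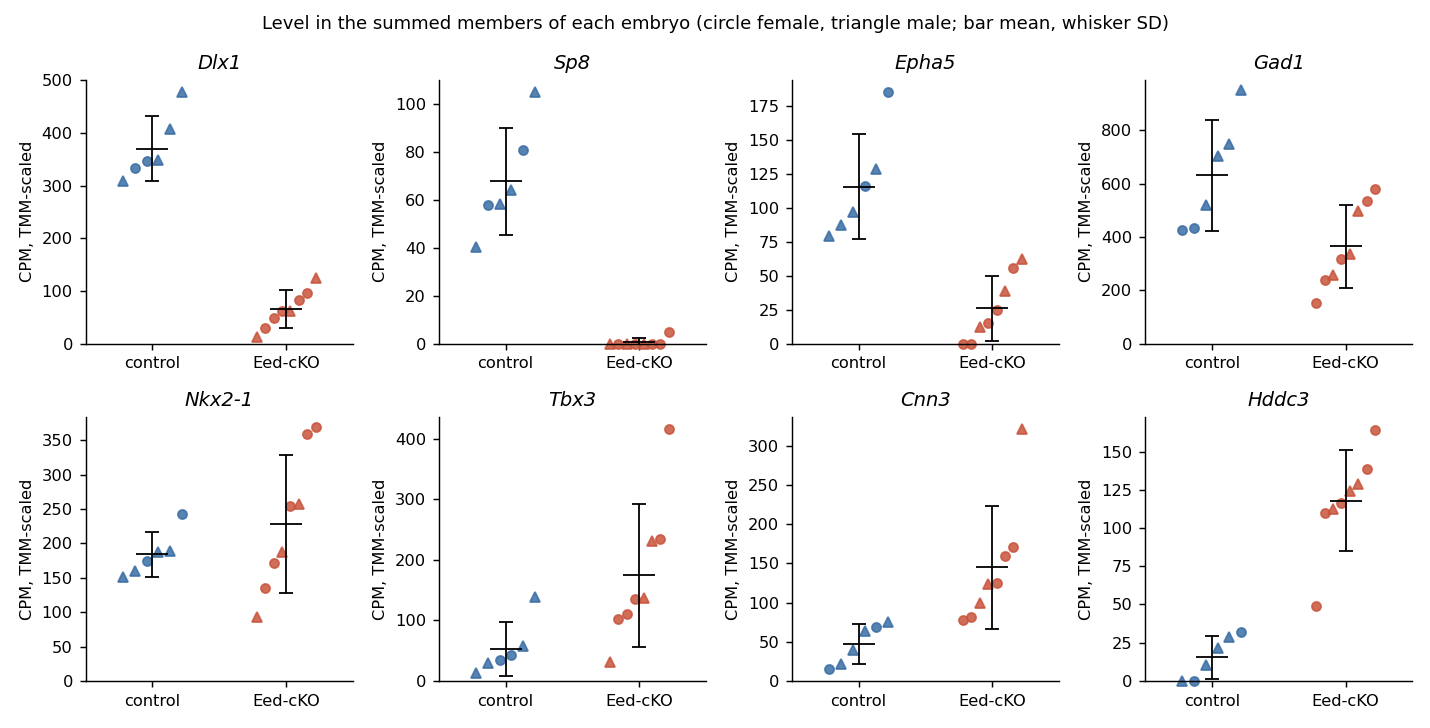
Level of 8 genes (CPM, TMM-scaled, linear axes from 0) in the summed Tac2 or Kiss1 neurons of each of 6 control and 8 Eed-cKO embryos (circles female, triangles male, bar mean, whiskers SD). The genotypes do not overlap for Dlx1, Sp8, Epha5, Cnn3 and Hddc3, and overlap for Gad1, Nkx2-1 and Tbx3.

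Among genes outside the lists, those with the largest falls and no overlap were, beside Sp8 and Dlx1, Capza1, Epha5, B3glct, Cntn4, Actr6 and C77370. Epha5, an ephrin receptor that guides axons, had 78.7, 107 and 185 CPM (lowest, median, highest) in control and 0, 19.7 and 62.1 CPM in Eed-cKO embryos, a log2 difference of -2.17 ± 0.42 (edgeR adjusted p = 0.0019). B3glct, a glucosyltransferase gene, fell by 2.07 (adjusted p = 0.0013) and C77370 by 1.38 (adjusted p = 0.0013). Cntn4, a neuronal adhesion molecule, fell by 1.84 (adjusted p = 0.034) and Actr6 by 1.60 (adjusted p = 0.018). Capza1, whose exons overlap St7l on the opposite strand, had 35 against 2 UMIs (adjusted p = 0.011). The calls of Cntn4, Actr6 and Capza1 were lost without the cells that carried markers of other types (adjusted p = 0.110, 0.0658 and 0.0690). Actr6 was also lost without F0588_E7 (-1.68) or F4690_E3 (-1.56), and Cntn4 without F0582_E7, F0589_E1, F4530_E2, F4650_E1, F4690_E3 or F502_E9, with values from -1.88 to -1.55.

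The rises without overlap were Ccnd2, Hddc3, Cnn3, Rps16, Ddb1 and Rpl8. Ccnd2, the cyclin D2 gene, had no UMI in the 147 control cells and 72 UMIs in Eed-cKO cells, in all 8 embryos, and was at least 35.9-fold higher (edgeR adjusted p = 1.25e-05). It was found in 11 of 57 Kiss1-positive and 4 of 34 Tac2-alone Eed-cKO cells. In the other neurons it rose by 2.18 ± 0.14 on the log2 scale (adjusted p = 1.07e-10). Hddc3 had 0, 15.9 and 31.7 CPM (lowest, median, highest) in control and 48.8, 120 and 164 CPM in Eed-cKO embryos, a log2 difference of 2.74 ± 0.42 (adjusted p = 1.29e-04), beside 2.85 ± 0.10 in the other neurons. Cnn3 had 15.8, 51.3 and 74.7 CPM against 77.5, 124 and 321 CPM, a difference of 1.78 ± 0.35 (adjusted p = 0.0029). The ribosomal protein genes Rps16 and Rpl8 rose by 0.77 and 0.58, and Ddb1 by 0.69. Cnn3, Rps16, Rpl8 and Ddb1 lost their calls without the cells that carried markers of other types (adjusted p = 0.370, 0.0816, 0.380 and 0.279). Rpl8 was also lost without F0588_E7, F0589_E1, F4520_E2 or F4520_E4 (0.55 to 0.58), and Ddb1 without any 1 of 12 embryos, all but F0652_E5 and F4520_E2 (0.63 to 0.76).

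Markers of other cell types moved with genotype in these neurons. Cells with at least 3 genes of another type numbered 5 of 147 in control (3.401%) and 17 of 94 in mutant embryos (18.1%), against 3.93% and 8.67% of the other neurons. Of 8 astrocyte and progenitor genes, 5 were tested and Sox9, Slc1a3 and Hes5 were higher in Eed-cKO embryos. Their summed level was 104 to 344 CPM over control and 75.2 to 1464 CPM over Eed-cKO embryos, and Gfap was at 0 in control cells. Of 8 meningeal genes, the 3 tested, Col3a1, Dcn and Col1a2, were higher, at a summed 0 to 10.4 CPM and 0 to 691 CPM, with Col1a1, Col3a1, Dcn, Lum and Col6a2 at 0 in control cells. Without the cells that carried such markers, Dlx1, Sp8, Epha5, B3glct, C77370, Meis2, Tbx3 and Hddc3 were still past the threshold. Ccnd2 had 22 UMIs left in these cells, all in Eed-cKO embryos, fewer than the minimum of 30 UMIs for a test. Dlx1 and Tbx3 were past the threshold under all 25 alternatives run on this comparison. Epha5 was past it under the 24, Sp8 and Hddc3 under the 23 and Ccnd2 under the 22 alternatives that gave them an adjusted p, and DESeq2 gave none for these 4 genes.

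The genotype difference was then taken in Pax6-negative cells alone, which keeps out the cells with a captured Pax6 UMI, nearly all of them in control. The mix of the remaining kinds still differed. Over all embryos, 52 were Kiss1-positive and 69 held Tac2 alone in control, against 57 and 34 in Eed-cKO embryos. The part of this mix in the differences below was not tested. Of 7593 genes tested in 6 control and 7 Eed-cKO embryos, 103 passed an adjusted p of 0.05 (1.36%; edgeR quasi-likelihood test), 62 higher and 41 lower in Eed-cKO embryos. Embryo F502_E6, with 4 such cells, was left out. The count moved by over 1.5 times without F0588_E7 (34), F4520_E4 (50), F0589_E1 (60), F4690_E3 (68) or F0652_E5 (159), and was 33 without the cells that carried markers of other types. Dlx1 fell here too, from 92.1 to 439 CPM in control to 12.8 to 124 CPM, with a log2 difference of -2.25 ± 0.36 (adjusted p = 2.98e-04) and an overlap at the edges. Sp8 had 37 control UMIs and 1 mutant UMI (adjusted p = 0.014), a call that was lost without the cells that carried markers (adjusted p = 0.0940). Meis2 fell by 2.14 (adjusted p = 0.014). Sp8 was also lost without F0588_E7 (adjusted p = 0.0609), and Meis2 without F4520_E4 (-1.76, adjusted p = 0.0989).

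Of the 13 tested prethalamic and GABAergic transcription factors, 4 fell and none rose in Pax6-negative cells, with a median of -1.47 against -0.03 over all genes. Gad2 fell by 1.21 (edgeR adjusted p = 0.027), a call lost without likely doublets (adjusted p = 0.0863) and without F0588_E7, F0589_E1, F0652_E5, F4520_E4, F4650_E2 or F4690_E3 (-1.24 to -1.02), and Gad1 differed by -0.82 ± 0.26 (adjusted p = 0.114). Tbx3 rose by 1.81 ± 0.36 (adjusted p = 0.0056). Asb4, a hypothalamic ubiquitin ligase subunit gene, had 87.0 to 210 CPM in control and 323 to 801 CPM in Eed-cKO embryos, a log2 difference of 1.63 ± 0.23 (adjusted p = 8.08e-05) with no overlap. Other rises without overlap were those of Ccnd2, Hddc3, Cnn3 and Gadd45g, the last by 1.503 (adjusted p = 0.019), and of ribosomal protein genes such as Rps16 (0.75, adjusted p = 0.017) and Rpl8 (0.61, adjusted p = 0.019). Gadd45g was lost without F4520_E4 (1.49) or F4690_E3 (1.46), Rps16 without F0588_E7 (0.73), and Rpl8 without F0588_E7, F0589_E1 or F4520_E4 (0.57 to 0.61).

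Among the largest falls without overlap in Pax6-negative cells were those of B3glct, Cntn4, 4933427D14Rik, Tmeff2, Fam3c, C77370 and Lrrn3. B3glct fell by 2.09 (edgeR adjusted p = 0.0018). Lrrn3 fell by 1.23 (adjusted p = 0.0052), Fam3c by 1.34 (adjusted p = 0.014) and Tmeff2 by 1.40 (adjusted p = 0.016). Without the cells that carried markers of other types, the calls of Cntn4, 4933427D14Rik, Tmeff2, Lrrn3, Cnn3, Rps16 and Rpl8 were lost. Fam3c and Tmeff2 were also lost without F0588_E7, F0589_E1 or F4520_E4, at -1.38 to -1.21 and -1.50 to -1.35. Cntn4 was lost without any 1 of 11 embryos (-2.35 to -1.53) and 4933427D14Rik without any 1 of 10 (-1.85 to -1.54).

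The transporter genes of single cells moved the same way as the GABA enzymes. Slc17a6 without Slc32a1 was found in 32.9% ± 7.59 (SD, n = 6) of an embryo's Tac2 or Kiss1 neurons in control and 53.2% ± 17.3 (SD, n = 8) in Eed-cKO embryos, with ranges of 23.5% to 43.3% and 33.3% to 80.0% (exact permutation test, p = 0.00666, adjusted p = 0.0264). The call was lost without F4650_E1 (18.4 percentage points, adjusted p = 0.0570). Slc32a1 without Slc17a6 was found in 32.8% ± 11.1 and 9.58% ± 12.9, with ranges of 13.04% to 43.5% and 0% to 33.3% (n = 6 and 8, exact permutation test, p = 0.00733, adjusted p = 0.0264), and 4 of 8 Eed-cKO embryos had no such cell. This call was lost without F4520_E2 (-22.5) or F4650_E1 (-23.9), at an adjusted p of 0.0570 each. Both transporters were found in 5.24% ± 6.62 and 13.4% ± 12.2 (n = 6 and 8, exact permutation test, p = 0.161, adjusted p = 0.222).

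**Figure D5:**
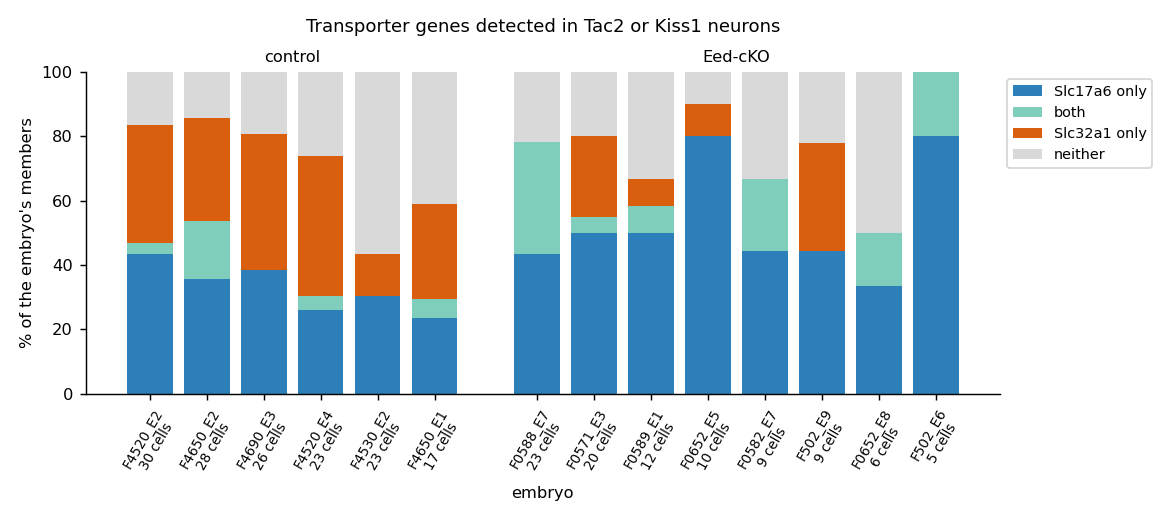
Percent of each embryo's Tac2 or Kiss1 neurons with Slc17a6 only, both transporters, Slc32a1 only or neither (stacked bars from 0 to 100, number of cells under each embryo). Slc32a1-only cells are present in all 6 control and in 4 of 8 Eed-cKO embryos.

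By kind, 13 of 26 Pax6-positive control cells held Slc32a1 only and 4 Slc17a6 only. Of the Kiss1-positive cells, 12 of 52 in control and 4 of 57 in Eed-cKO embryos held Slc32a1 only, and 23 and 28 held Slc17a6 only. Of the cells with Tac2 alone, 24 of 69 and 6 of 34 held Slc32a1 only, and 23 and 19 Slc17a6 only. In the other neurons Slc32a1-only cells were 23.5% and 11.9%, and cells with both were 5.23% and 21.3%.

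The level of these genes was set against the other neurons of the same embryos. In control, 130 of 13595 genes passed an adjusted p of 0.05 (0.956%; edgeR quasi-likelihood test with the embryo as a block), 44 higher and 86 lower in the Tac2 or Kiss1 neurons. These sums hold far fewer cells than those of the other neurons, and the count was 46 with DESeq2 and 37 when the other neurons were reduced to the same number of cells. Rreb1 was higher by 2.66 ± 0.33 (adjusted p = 1.70e-12), Postn by 2.30, Sp8 by 1.89 ± 0.31 (adjusted p = 7.38e-07), Cntn4 by 1.31, Pou2f2 by 1.205, Lypd1 by 1.18, Zfhx4 by 1.07 and Dlx1 by 1.01 ± 0.11 (adjusted p = 1.18e-15), each in all 6 embryos. Of 16 tested genes of the arcuate kisspeptin-neuron list, 4 were higher, among them Esr1 (1.71), Sox14 (1.42) and Tbx3 (1.303), and 1, Ghrh, was lower. Ghrh, the growth hormone-releasing hormone gene of other arcuate neurons, had no UMI and was at least 8.39-fold lower at a floor of 3 counts. That bound covers counting error only. The other neurons held 5.90 to 84.3 CPM of Ghrh over the control embryos. Esr1 lost its call without likely doublets (adjusted p = 0.0662), without the largest library (0.0686) and without cells with markers of other types (0.0570). Of these, Esr1 was also lost without F4530_E2, F4650_E1 or F4690_E3 (1.199 to 1.56), Sox14 without F4520_E2, F4530_E2 or F4690_E3 (1.22 to 1.27), Tbx3 without F4530_E2 or F4690_E3 (0.88 and 0.99), and Postn without F4520_E4 or F4650_E2 (2.19 and 1.75). Gad1 was higher by 0.75 and Gad2 by 0.59, but these differences were -0.037 and -0.025 when each cell was thinned to 2000 UMIs. Slc17a6 was lower by 0.63 (log2 difference -0.63 ± 0.12, adjusted p = 2.28e-05). Ebf3, a helix-loop-helix transcription factor gene, differed by -2.91 ± 0.27 (adjusted p = 2.49e-24). Most calls of this fit did not hold at equal depth. Of the genes followed in it, not all reported here, 5 kept their call after thinning, 16 lost it and 2 reversed. With DESeq2, 13 kept it and 11 lost it. Rreb1 and Ebf3 kept theirs under all 18 alternatives.

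In Eed-cKO embryos, 241 of 13775 genes passed (1.75%), 51 higher and 190 lower, and 27 passed with equal numbers of cells. With another scaling, by relative log expression (RLE), 131 passed, 89 higher and 42 lower, as the median of all genes moved from -0.19 to 0.02, so the balance of rises and falls depended on the scaling. The count was 131 without F0589_E1 and 159 without F0588_E7. Esr1 was higher by 3.03 ± 0.50 (edgeR adjusted p = 1.24e-06), Tacr3 by 2.16 ± 0.57 (adjusted p = 0.015), Sox14 by 2.04 ± 0.51 (adjusted p = 0.0078) and Tbx3 by 1.69 ± 0.24 (adjusted p = 1.93e-09). Mum1l1 was higher by 2.20, Nhlh2 by 1.42, Ap1s2 by 1.31 and Gabrq by 1.26, each in all 8 embryos. Tacr3 was lost without F0571_E3, F0652_E8 or F502_E9 (1.58 to 2.02), Sox14 without F0588_E7 or F0652_E5 (1.78 and 1.87), and Gabrq without F0571_E3 or F0652_E8 (1.12 and 1.07). After thinning to 2000 UMIs, 3 of the genes followed in this fit, not all reported here, kept their call and 18 lost it. Of 18 tested prethalamic and GABAergic transcription factors none was higher and 3 were lower in Eed-cKO embryos, with a median of -0.78, whereas in control 7 were higher and 1 lower, with a median of 0.67.

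The test of whether the genotype difference itself differed between the Tac2 or Kiss1 neurons and the other neurons called 66 of 14660 genes (0.45%; edgeR), 36 more positive and 30 more negative in the former. It called 8 with DESeq2 and 2 with equal numbers of cells. Of the prethalamic and GABAergic transcription factors, 5 of 18 were more negative and none more positive. Of 13 transmitter genes, 3 were more negative, and none of 18 genes of the arcuate kisspeptin-neuron list passed. The 5 lowest adjusted p belonged to Ttr (6.03), Igf2 (5.69), Vim (2.19), Meis2 (-2.08) and Tcf7l2 (2.10). No gene named from this test, these 5 among them, kept its call with equal numbers of cells. There 8 lost it and 1 reversed, and thinning to 2000 UMIs likewise left 8 short and 1 reversed. The value of Ttr, the transthyretin gene of choroid plexus, rested on 1 cell of F502_E6, and without that embryo it was -0.50. Igf2, a gene of meningeal and vascular cells, lost its call without the cells with markers of other types (3.23, adjusted p = 0.368).

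Hox genes, which specify posterior identity and are silent in the normal forebrain, were absent from the 147 control cells, which allows a share of up to 2.04%. In Eed-cKO embryos they were found in 36 of 94 cells (38.3%), with 117 UMIs of 24 genes. By kind, 19 of 57 Kiss1-positive, 15 of 34 Tac2-alone and 2 of 3 Pax6-positive cells held a Hox UMI. The share was 47.3% in the other Eed-cKO neurons and 16.1% in vascular, meningeal and microglial Eed-cKO cells. By embryo it was 10.0% to 65.2% (median 40.8%) in the Tac2 or Kiss1 neurons and 35.8% to 61.5% (median 48.8%) in the other neurons, and it was lower in the former in 6 of 8 embryos. In the fit within Eed-cKO embryos, 4 of 29 tested Hox genes were lower in the Tac2 or Kiss1 neurons (Hoxc10, Hoxc13, Hoxb13 and Hoxd10) and none was higher, where 1.38% of all genes tested were lower. With RLE scaling, the balance over all genes in this fit turned from 51 higher and 190 lower to 89 higher and 42 lower, and Hoxb13 and Hoxd10 lost their calls (edgeR adjusted p = 0.109 and 0.178). Hoxc10 differed by -1.88 on the log2 scale (edgeR adjusted p = 2.80e-04). The calls of Hoxc13, Hoxb13 and Hoxd10 were lost without likely doublets (adjusted p = 0.0644, 0.0979 and 0.113). Hoxc13 was also lost without F0589_E1 (-1.61), Hoxb13 without F0571_E3, F0588_E7, F0652_E5 or F0652_E8 (-1.69 to -1.60), and Hoxd10 without any 1 of 7 embryos, all but F0588_E7 (-2.05 to -1.65).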

How the data were processed

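Droplet libraries (Bio-Rad ddSEQ with the Illumina SureCell 3' kit) of the dissected E18.5 hypothalamus were aligned by the authors to mm10 with STAR 2.5.2b and SAMtools 1.3, per the submitters' processing notes. The authors deposited raw UMI counts of 16510 genes in 14121 cells, after removing cells with few UMIs. No column belonged to a sample outside the series. Scripts ran in Python 3.11.15 (numpy 2.4.6, pandas 2.3.3, scipy 1.17.1, scanpy 1.11.5) and R 4.3.3.

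Cells were summed by embryo, since libraries of an embryo share 1 animal. Shares were compared by exact two-sided permutation tests over all 5005 splits of 6 against 9 embryos (3003 for 6 against 8). Sums of at least 5 cells were compared with edgeR 4.0.16 (quasi-likelihood test, TMM scaling, genes with at least 30 UMIs, Benjamini-Hochberg adjusted p under 0.05). CPM of a gene comparison are TMM-scaled. DESeq2 1.42.0 was an alternative, as were other scalings, count filters, cell definitions, thinning to 2000 UMIs per cell, litters as samples, and leaving out each embryo, the largest library, the 6% of cells with the highest Scrublet score of each library, and cells with at least 3 genes of another type. Doublets were not removed otherwise. Sums from the same embryo were paired by the animal, as a block. Tac2, Kiss1, Pax6 and the 6 neuronal genes were left out of calls among the cells they chose. Each embryo is a separate animal.

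Genes were named by list, and by the 8 largest rises and falls past the threshold with embryos not overlapping (or moving the same way in every embryo), Hox genes apart, and the 5 lowest adjusted p of the interaction. The cells, the Pax6 split and the gene lists were chosen with earlier results of these data known. Some of the fits were tested on simulated data. These were the genotype comparisons in Tac2 or Kiss1 neurons and in Pax6-negative cells, the control Pax6 split, and the control comparison with other neurons. The remaining fits, among them the interaction and the comparison with other neurons in Eed-cKO embryos, were not simulated. Between genotypes (7623 genes), 99.5% of 200 genes changed 4-fold and 60.5% of 200 changed 2-fold were recovered. Between Pax6-positive and Pax6-negative control cells, 98.5% (2822 genes) and 34% (2842 genes) were. Of the genes called, 3.86% and 10.4% had not been changed between genotypes, and 2.96% and 2.86% in the Pax6 split. Against other neurons in control, 83% and 40.5% were recovered, and 6.74% and 2.41% of the genes called had not been changed. Between genotypes in Pax6-negative cells, 99.5% and 52% were recovered. There 3.86% and 2.8% of the genes called had not been changed, and 8.68% in the run with 8-fold changes. The changed genes were drawn only from genes with clearly more UMIs than the minimum for a test. These rates therefore do not cover genes with fewer UMIs, such as Sp8 and Capza1. Tac4, Tacr2 and Otp were not analysed here, and some genes that the naming rule gave are not reported here. Gene positions are from a GENCODE annotation of GRCm38.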

Additional observations from a re-analysis of the deposited data

Results flagged for a closer look

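Of 55 groups of 4 to 10 embryos examined for an embryo far from the others, 10 were picked out. The rule picks about 1 in 20 groups only where values follow a normal distribution. Some groups were counts near 0, so the 10 cannot be set against that rate. In Eed-cKO embryos, Sp8 was at 0 in 7 of 8 with 1 UMI in all, and Capza1 was at 0 in 6 of 8 with 2 UMIs. In the sum over all neurons, Tac2 stood apart at 47.3 CPM in the Eed-cKO embryo F0582_E7 and at 29.2 CPM in the control embryo F4520_E2. The Pax6-positive share of the other neurons stood apart at 7.63% in F502_E6, and the share of Tac2 or Kiss1 neurons with both transporters at 17.9% in control embryo F4650_E2. In the summed Tac2 or Kiss1 neurons, Sp8 stood apart at 5.0 CPM in F0588_E7, Capza1 at 13.8 CPM in F0652_E5, and Ccnd2 and Cnn3 at 399 and 321 CPM in F0589_E1. Hddc3 stood apart at 48.8 CPM in F0652_E8, and Cntn4 at 181 CPM in control embryo F4530_E2.

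The genotype difference was set against that in the other neurons of the same embryos. For the Pax6-positive share the difference between the kinds was -13.5 percentage points (exact permutation test). The edgeR interaction term called 66 of 14660 genes. For the 5 with the lowest adjusted p it was 6.03 on the log2 scale for Ttr, 5.69 for Igf2, 2.19 for Vim, -2.08 for Meis2 and 2.10 for Tcf7l2. None of these 5 calls held with equal numbers of cells or after thinning to 2000 UMIs. Ttr rested on 1 cell of F502_E6 and was -0.50 without that embryo (edgeR adjusted p = 1).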

How the results depend on the processing

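Shares differed by Eed-cKO minus control in percentage points. Thinning each cell to 2000 UMIs gave -0.254 for Pax6-positive cells among neurons, -10.0 for their share of the Tac2 or Kiss1 neurons, -9.10 for the excess over other neurons, -0.197 for at least 3 Tac2 UMIs, 20.1 for Slc17a6 only and -6.75 for Slc32a1 only, none past the threshold, and it turned Kiss1-positive neurons to -0.0309. Litters as samples gave -0.357, -13.3, -12.8, -0.330, 17.3 and -21.4 in the same order, none past it. Without the largest library the first 4 were -0.369, -12.2, -11.9 and -0.365, none past it. Asking for 4 of the 6 neuronal genes left the Pax6 share (-11.3), the excess (-10.7), at least 3 Tac2 UMIs (-0.415) and Slc32a1 only (-20.9) short of it. Asking for 2 UMIs of Tac2 and Kiss1 gave -24.8 for the Pax6 share, -24.1 for the excess, 27.8 for Slc17a6 only and -22.5 for Slc32a1 only, short of it, and -0.717 for all such neurons, past it. Asking for 2 Pax6 UMIs gave -12.1 for the Pax6 share and -10.7 for the excess, short of it, and -1.44 for the other neurons, past it. Without the 2 embryos of 1 library the Pax6 share was -13.4, the excess -13.1 and at least 3 Tac2 UMIs -0.344, short of it. Without likely doublets Slc17a6 only was 13.99, short of it. Without cells with markers of other types the share of all such neurons was -1.05, past it.

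Leaving out 1 embryo at a time gave -1.11 to -0.703 for all Tac2 or Kiss1 neurons, -0.459 to -0.323 for Pax6-positive cells, -0.697 to -0.306 for Pax6-negative cells, -16.3 to -10.7 for the Pax6 share, -1.13 to -0.374 for that of other neurons, -15.5 to -10.2 for the excess, -0.0364 to 0.212 for Kiss1 (-0.0195 without F0588_E7 and -0.0364 without F4650_E1), -0.496 to -0.367 for at least 3 Tac2 UMIs, 16.5 to 23.1 for Slc17a6 only, -27.2 to -21.1 for Slc32a1 only and 5.08 to 10.7 for both. In all neurons it gave log2 differences of 1.11 to 1.57 for Kiss1, -0.98 to -0.61 for Pax6 and -0.81 to 0.11 for Tac2 (0.11 without F4520_E2). Counts of genes ran from 60 to 194 in Tac2 or Kiss1 neurons, 34 to 159 in Pax6-negative cells, 1616 to 3077 in other neurons, 16 to 46 for the Pax6 split, 99 to 130 and 131 to 225 against other neurons in control and Eed-cKO embryos, and 45 to 81 for the interaction.

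In Tac2 or Kiss1 neurons 53 genes were called without cells with markers of other types, 88 with at least 10 cells per sum and 33 with at least 2 peptide UMIs. In Pax6-negative cells the first and last gave 33 and 12. The Pax6 split called 55 genes with a filter of 15 UMIs and 21 with DESeq2. Against other neurons in control, 46 were called with DESeq2 and 37 with equal numbers of cells. In Eed-cKO embryos 131 were called with RLE, 36 with DESeq2, 66 with 10 cells, 56 with 2 peptide UMIs, 24 after thinning and 27 with equal numbers. The interaction called 8, 42, 22, 2 and 2 with DESeq2, without marker cells, with 2 peptide UMIs, after thinning and with equal numbers. In all neurons Kiss1 was 1.303 with DESeq2, 1.2005 without likely doublets and 1.23 with sex as a term, short of the threshold, and Pax6 was -0.74 by litter, past it. Reversed genes were Gad1 (-0.037) and Gad2 (-0.025) against other control neurons after thinning, and, in the interaction, Ttr (-0.48 without likely doublets, -0.50 without F502_E6 in a leave-one-out range of -0.50 to 6.87, -0.070 with 10 cells, -5.94 with 2 peptide UMIs), Tcf7l2 (-6.57 after thinning) and Igf2 (-0.55 with equal numbers). The cause was not tested.

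Without the replicate block of embryo pairing, 23 genes were called against other neurons in control and 137 in Eed-cKO embryos. No paired analysis was possible for the genotype comparisons because no embryo or litter held both genotypes. The genotype comparison of Pax6-positive cells, the Pax6 split in Eed-cKO embryos, and the control split with 10 cells or after thinning could not be fitted with so few cells. Of the alternatives for named genes, 1826 kept direction and side of the threshold, 459 kept direction but fell short, and 8 reversed.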

Other observations

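Rreb1, Nfib and Calb2, which led the Pax6-positive control cells, were counted together in all neurons, a combination chosen after these values were seen and given with no test. In control embryos 57 neurons held all 3 genes (0.966%), in 6 embryos, of which 19 held Tac2, 22 held Pax6 and 16 held both. In Eed-cKO embryos 20 neurons held them (0.383%), in 7 embryos, of which 0 held Tac2 and 1 held Pax6. Nfib by itself was found in 23% of the other control neurons.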
